A study of Rattus norvegicus with 3 samples.

Results

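Hspa5, Hsp90b1, Sdf2l1, Dnajb9, Dnajc3, Pdia4, Creld2, Manf, Herpud1 and Xbp1 are 10 genes of protein folding in the endoplasmic reticulum, taken as a fixed list of symbols from 14506 genes that had a probe set of their own on the array. All 10 had 1 probe set each, and all were among the 10879 genes that remained after the dimmest were left out (mean level under the 25th percentile, 5.34 on the log2 scale). They were measured in tibialis anterior muscle of male Wistar rats, 11 weeks old, fed for 3 weeks on high-fat chow (45% of energy from fat). After 2 of those weeks the muscle was injected with 150 µg of plasmid DNA and electroporated, and it was taken 8 days later. There were 3 groups of 1 array each: a plasmid without insert (empty vector), a plasmid carrying Plin2 (adipose differentiation-related protein, ADRP) and a plasmid carrying Plin5 (OXPAT), both proteins of the perilipin family that coat lipid droplets. Per the labels, both inserts stood behind the CMV promoter, a viral promoter that is not restricted to muscle fibres, and the Plin2 insert was in a pENTR plasmid whereas the Plin5 insert and the empty vector were pcDNA3.1 plasmids, so insert and backbone cannot be told apart on the Plin2 array. Each array held equal amounts of RNA from 6 rats, so no spread between animals could be measured and no difference below was tested.

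The endoplasmic reticulum folds secreted and membrane proteins, and in muscle it is continuous with the sarcoplasmic reticulum that stores calcium. When unfolded protein accumulates, a membrane sensor, IRE1, splices the Xbp1 messenger RNA, another, PERK, slows translation and favours Atf4, and ATF6 is cut in the Golgi to release a transcription factor. Spliced XBP1 and ATF6 are known to bind promoters of chaperone genes, often together with the factor NF-Y. Hspa5 (BiP, GRP78), the Hsp70 chaperone of the lumen, is the gene most often read as the sign of this response.

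The promoter elements of these genes were examined first, because they are the sequences through which the response is known to reach them. RefSeq promoter windows (assembly GRCr8, 250 bases before to 50 after the gene start, 33469 windows) were matched by gene number for 9 of the 10 genes; Manf was not matched. The endoplasmic reticulum stress element (ERSE), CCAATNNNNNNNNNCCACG on either strand, joins a CCAAT box, bound by NF-Y, to a CCACG box, bound by ATF6 and XBP1. It was found in 22 of 33469 windows (0.0657%), in 15 of 8985 windows of genes compared on the arrays (0.167%) and in 5 of the 9 matched windows. The 15 include these 5. Both the element and the genes were chosen for a known part in the response, so the share among the members is not a test. The 5 were Hspa5, Hsp90b1, Creld2, Xbp1 and Dnajc3, and Hsp90b1 had 2 matches. The shorter ERSE-II, in which ATTGG and CCACG are 1 base apart, was found in 17 windows (0.0508%), among them Herpud1. The matches are printed in capitals with 20 bases on each side, on the strand of the gene; CGTGG and ATTGG are the boxes read from the other strand.
Hspa5, chr3:38452953-38453011, + strand: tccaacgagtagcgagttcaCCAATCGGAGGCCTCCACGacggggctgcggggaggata
Hsp90b1, farther match, chr7:23012431-23012489, - strand: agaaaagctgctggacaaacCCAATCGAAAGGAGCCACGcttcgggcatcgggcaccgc
Hsp90b1, nearer match, chr7:23012327-23012385, - strand: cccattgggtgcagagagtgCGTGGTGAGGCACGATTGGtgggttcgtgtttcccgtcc
Creld2, chr7:121789219-121789277, + strand: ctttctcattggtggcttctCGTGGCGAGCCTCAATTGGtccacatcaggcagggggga
Xbp1, chr14:84604538-84604596, + strand: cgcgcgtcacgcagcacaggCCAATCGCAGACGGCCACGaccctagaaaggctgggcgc
Dnajc3, chr15:102432514-102432572, + strand: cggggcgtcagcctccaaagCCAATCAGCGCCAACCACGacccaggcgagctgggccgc
Herpud1, ERSE-II, chr19:10614801-10614851, - strand: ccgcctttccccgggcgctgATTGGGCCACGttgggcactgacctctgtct

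Relative to the gene start, the ERSE of Hspa5 lay at -43 to -25 and that of Xbp1 at -65 to -47. The Dnajc3 match was farther out, at -133 to -115, and the Creld2 match at -145 to -127 was in the reverse orientation. The matches of Hsp90b1 lay at -176 to -158 and, reversed, at -72 to -54, and the ERSE-II of Herpud1 at -124 to -114. Sdf2l1 and Pdia4, the members with the largest differences between arrays below, had no exact ERSE or ERSE-II in the window. They are shown as the 250 bases before the gene start, with each CCAAT and CCACG box, on either strand, in capitals.
Sdf2l1, chr11:97376628-97376877, + strand: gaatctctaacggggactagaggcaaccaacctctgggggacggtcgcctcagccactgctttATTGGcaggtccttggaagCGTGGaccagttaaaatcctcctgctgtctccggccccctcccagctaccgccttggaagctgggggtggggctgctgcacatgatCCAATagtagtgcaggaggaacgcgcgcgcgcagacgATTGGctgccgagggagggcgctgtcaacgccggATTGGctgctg
Pdia4, chr4:78153192-78153441, - strand: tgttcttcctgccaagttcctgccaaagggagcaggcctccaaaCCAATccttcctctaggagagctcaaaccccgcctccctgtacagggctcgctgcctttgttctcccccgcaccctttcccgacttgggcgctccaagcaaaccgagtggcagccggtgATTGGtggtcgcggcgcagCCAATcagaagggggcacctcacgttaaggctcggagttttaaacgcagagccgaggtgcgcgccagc

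Sdf2l1 had 4 CCAAT boxes and 1 CCACG box, at -168 to -164. Pdia4 had 3 CCAAT boxes, and its only CCACG box, at 45 to 49, lay after the start. Dnajb9 likewise had both boxes but no exact element. The boxes alone are common: CCAAT was in 37.5% of all windows and CCACG in 31.6%, counting those inside an ERSE, and all 9 matched members had both. The core of the unfolded protein response element, TGACGTGG, was in 0.595% of all windows and in none of the 9. An element of CHOP and ATF4, TGATGNAA, was in 3.98% of windows and, among the members, in Herpud1 only. A match is a string of letters and not a measured binding site.

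**Figure D1:**
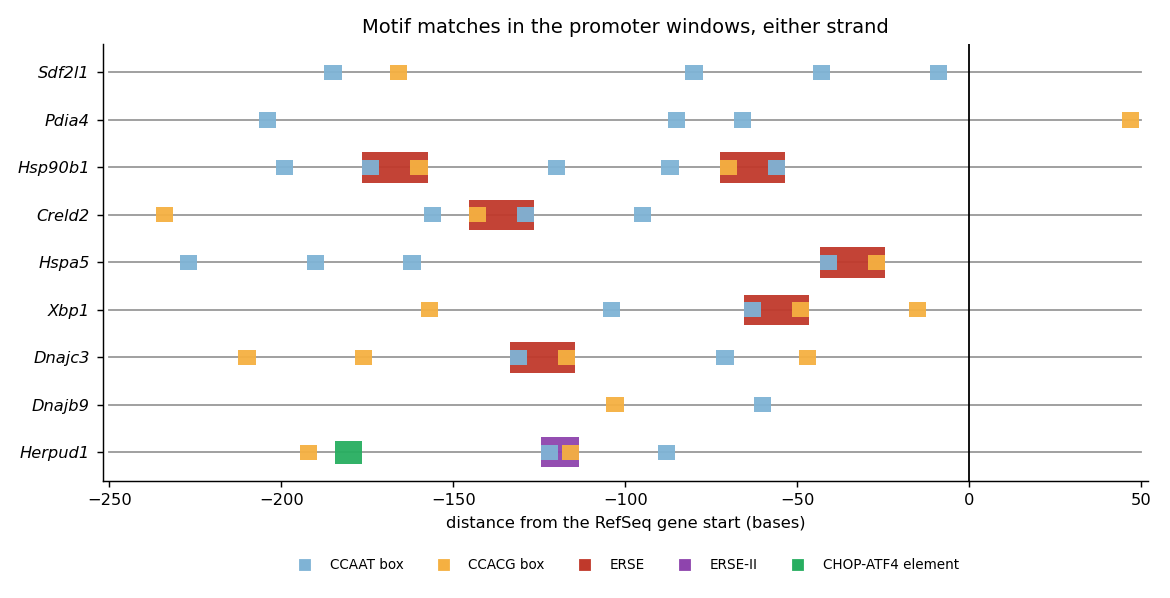
Motif matches on either strand in the promoter windows of the 9 matched genes, by distance in bases from the RefSeq gene start (vertical line), with genes ordered by their Plin2 minus empty vector difference. The 5 genes with an ERSE (red) stand next to each other in the middle of that order, from Hsp90b1 (0.54) to Dnajc3 (0.04), and Sdf2l1 and Pdia4 above them and Dnajb9 below have boxes only.

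Against the empty vector, 6 of the 10 genes were higher on the Plin2 array by 0.40 to 0.83 log2 units (Sdf2l1, Pdia4, Hsp90b1, Creld2, Hspa5 and Manf), and the other 4 (Xbp1, Dnajc3, Dnajb9 and Herpud1) lay between -0.11 and 0.07. No member lay between those ranges. The median of the 10 was 0.42 (1.34-fold), beside a median of 0.00 over all 10879 genes. At 1.5-fold (0.58 log2 units), the limit used to count genes, 2 members were higher (Sdf2l1 and Pdia4) and 0 lower; over all genes, 8.84% were higher and 5.8% lower by that much. At 1.2-fold (0.26), 6 of 10 were higher, beside 19.4% of all genes, and 0 lower, beside 15.5%. Among the 6923 genes in the level range of the members, the shares higher were 10.6% at 1.5-fold and 22.6% at 1.2-fold.

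On the Plin5 array the same 10 genes stayed between -0.11 and 0.06 of the empty vector, with a median of 0.00. None of the 10 passed 1.5-fold or 1.2-fold in either direction. Few genes did so on that array at all: 0.221% of all genes were higher and 1.42% lower at 1.5-fold, and 1.52% and 5.71% at 1.2-fold. Of the members, 3 were above the empty vector, 5 below and 2 exactly equal, beside 25.8% of all genes above and 40.2% equal. The highest of the 3 levels belonged to the Plin2 array for 8 of the 10 genes, all but Herpud1 and Dnajb9. For Xbp1 and Dnajc3 the Plin2 array was above the empty vector by only 0.07 and 0.04. The same share over all genes was not counted. It can be at most 38.3%, the share of all genes higher on the Plin2 array than on the empty vector array.

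**Figure D2:**
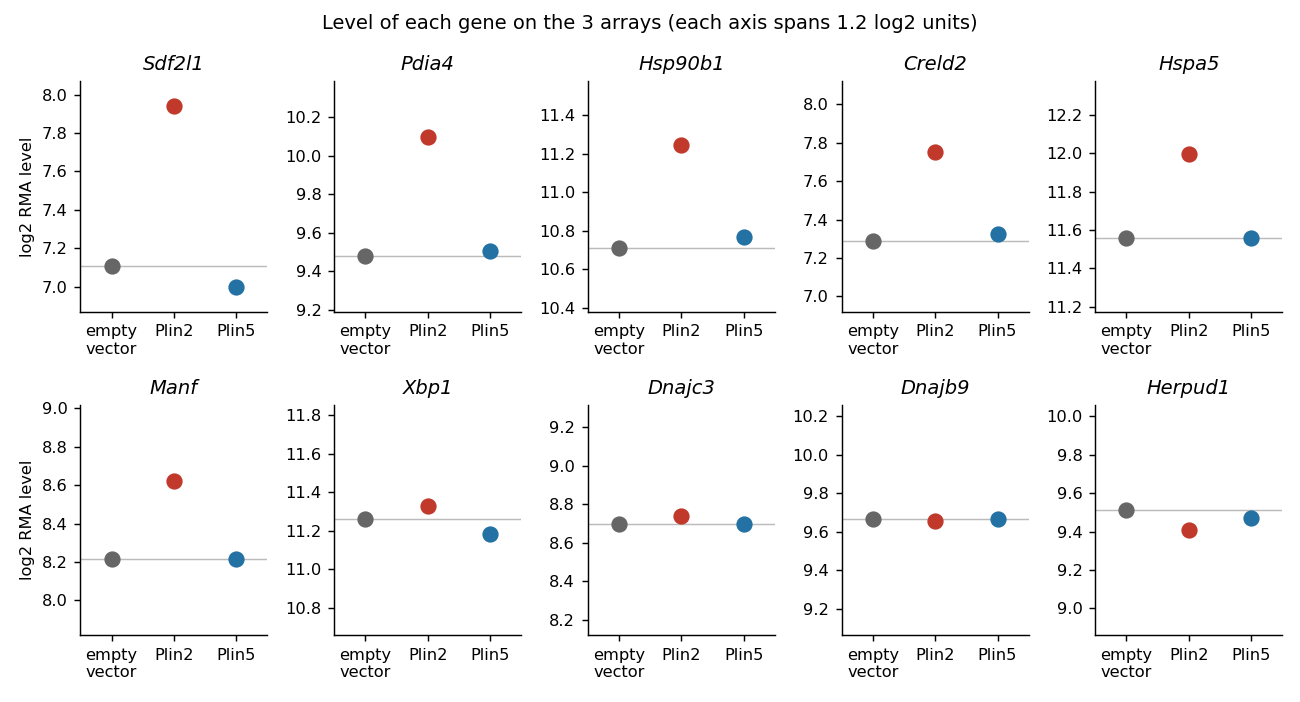
Log2 RMA level of each of the 10 genes on the empty vector (grey), Plin2 (red) and Plin5 (blue) arrays, 1 array per group; every axis spans 1.2 log2 units and the line marks the empty vector. In the first 6 panels the Plin2 point stands 0.40 to 0.83 above the empty vector, and in the last 4 all points lie close together.

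Hspa5, the Hsp70 chaperone that binds unfolded chains and holds the stress sensors inactive, had levels of 11.56 on the empty vector array, 11.99 on the Plin2 array and 11.56 on the Plin5 array. Plin2 was the high array, and the other arrays were 0.005 log2 units apart. The Plin2 difference of 0.43 (1.35-fold) was above that of 87.3% of all genes, and above 89.1% of the 359 genes within 0.5 log2 units of its mean level. Bright genes were slightly lower on the Plin2 array, with a median of -0.12 in that level band. After a loess correction for level the Hspa5 difference was 0.55.

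Hsp90b1 (GRP94), the Hsp90 chaperone of the lumen, stood at 10.71 on the empty vector array, 11.25 on the Plin2 array and 10.77 on the Plin5 array. Again only Plin2 was clearly apart, by 0.54 (1.45-fold) from the empty vector, and the Plin5 array was 0.06 above it. The Plin2 difference was larger than that of 90.0% of all genes. With the loess correction it was 0.62 and passed 1.5-fold.

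Of the cochaperones, Sdf2l1, a small protein of the lumen that works with Hspa5 and its J-domain partners, showed the largest difference of the 10 genes. Its levels were 7.11 on the empty vector array, 7.94 on the Plin2 array and 7.00 on the Plin5 array. The Plin2 array was high and the Plin5 array lowest: the differences were 0.83 (1.78-fold) and -0.11. A total of 480 genes had a larger Plin2 difference, so that it was above 95.6% of all genes.

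The J-domain proteins, which stimulate the ATPase of Hspa5, did not follow it. Dnajb9 (ERdj4), also known to restrain IRE1, had levels of 9.66 on the empty vector, 9.66 on the Plin2 and 9.66 on the Plin5 array, with a range of 0.009 log2 units. Dnajc3, a J-domain protein of the lumen first known as an inhibitor of the kinase PKR, had levels of 8.70, 8.74 and 8.70 on the same arrays. Neither gene was set apart on any array; the Plin2 differences were -0.01 and 0.04, and the Plin5 differences were exactly 0.00. Exactly equal values are common in this table, as they were found for 40.2% of all genes between Plin5 and the empty vector and for 30.0% between Plin2 and the empty vector. An equal value is therefore not evidence of an equal transcript level.

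Pdia4 (ERp72), a protein disulfide isomerase that forms and rearranges disulfide bonds, stood at 9.48 on the empty vector array, 10.10 on the Plin2 array and 9.51 on the Plin5 array. Plin2 was high, by 0.62 (1.53-fold), and Plin5 lay 0.02 from the empty vector. Only 885 genes had a larger Plin2 difference. The value sits just past 1.5-fold, and with all arrays shifted to a common median it was 0.56 and no longer passed.

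Creld2, a cysteine-rich protein of the reticulum, had levels of 7.29 on the empty vector, 7.75 on the Plin2 and 7.32 on the Plin5 array. Manf, a small protein that binds Hspa5 and can be secreted, had levels of 8.22 on the empty vector, 8.62 on the Plin2 and 8.22 on the Plin5 array. Both were high on the Plin2 array alone, by 0.46 (1.38-fold) and 0.40 (1.32-fold). On the Plin5 array they differed from the empty vector by 0.03 and by less than 0.01 log2 units. Within 0.5 log2 units of their mean levels, 86.0% of 2087 genes lay below Creld2 and 82.6% of 2392 genes below Manf in the Plin2 difference, which is a less extreme place than that of Sdf2l1 (95.2% of 2036 genes).

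Herpud1, a membrane protein of the ubiquitin ligase complex that removes misfolded proteins, was the lowest of the 10 in the Plin2 comparison. It stood at 9.51 on the empty vector array, 9.41 on the Plin2 array and 9.47 on the Plin5 array. The empty vector array was highest, and the differences of -0.11 and -0.04 were small. Xbp1, the transcription factor whose messenger RNA IRE1 splices, had levels of 11.26, 11.33 and 11.18 on the empty vector, Plin2 and Plin5 arrays, so its arrays spanned 0.14 log2 units. The Plin2 difference was 0.07 (1.05-fold), and from 0.02 to 0.17 over the alternatives of processing. The Plin5 difference was -0.08. A single probe set reports Xbp1, and the table gives no separate value for the spliced form.

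**Figure D3:**
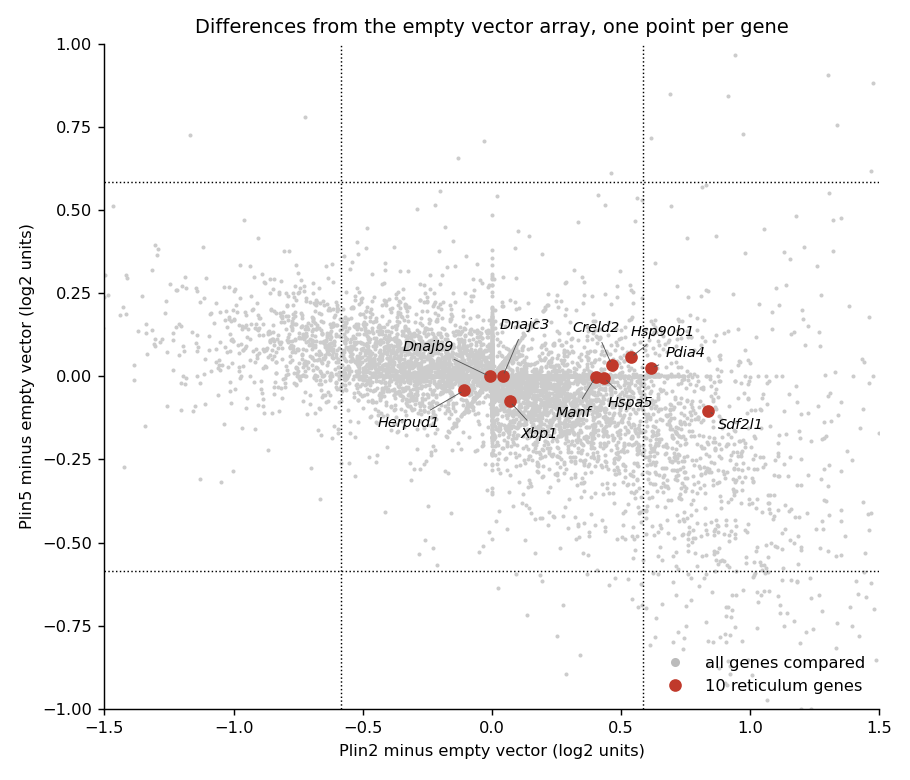
Difference from the empty vector on the Plin2 array (horizontal) and the Plin5 array (vertical), in log2 units, for all genes compared (grey, 10774 of 10879 in view) and the 10 genes (red); dotted lines mark 1.5-fold, and both axes share the empty vector array. The 10 genes lie along the horizontal zero line, with 6 of them at 0.40 or more.

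In the direct comparison of Plin5 with Plin2, 8 of the 10 genes were lower on the Plin5 array. The median of the 10 was -0.42, beside 0.00 over all genes. The other 2 members, Herpud1 and Dnajb9, were above 0, beside 32.7% of all genes. No member was exactly equal on these arrays, beside 27.03% of all genes. The share of all genes that were lower, to be set beside 8 of 10, is what remains after the shares above 0 and equal. By 1.5-fold 2 were lower, Sdf2l1 (-0.94, a 1.92-fold gap) and Pdia4 (-0.59, 1.51-fold), beside 11.3% of all genes. None was higher, beside 7.19%. At 1.2-fold 6 were lower, beside 22.0% of all genes, and 0 higher, beside 16.6%. The same 6 genes were higher on Plin2 against the empty vector, and both comparisons contain the Plin2 array. Shifting the arrays to a common median moved this comparison by 0.09 log2 units: the median of the 10 genes was then -0.33, Pdia4 was at -0.50, and over all genes 1012 were higher and 1032 lower, in place of 782 and 1225.

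Further genes of the reticulum gave a similar picture on the Plin2 array for luminal chaperones and for isomerases. The counts of each list are to be read against all genes, of which 38.3% were above 0 on the Plin2 array, 19.4% higher and 15.5% lower by 1.2-fold, and 8.84% higher and 5.8% lower by 1.5-fold. Of 22 other chaperones and cochaperones, 16 were above 0 and 11 were higher by 1.2-fold, with a median of 0.25; 1 was higher by 1.5-fold and 1 lower. Fkbp10, a prolyl isomerase for collagen, was at 0.73. Cdnf, the paralogue of Manf, was at -1.11, the opposite side from Manf: its levels were 9.22 on the empty vector, 8.11 on the Plin2 and 9.52 on the Plin5 array. Outside the naming rule, some genes were chosen for their known roles in folding, with their values known. Hyou1 (an Hsp110-type partner of Hspa5) was at 0.44, and Calr and Canx (the lectin chaperones of glycoproteins) were at 0.45 and 0.38. Serpinh1 (the collagen chaperone) was at 0.38, and Dnajb11, a J-domain partner of Sdf2l1, was at 0.11. Others of the list were not higher by 1.2-fold: Sil1 was at 0.22, Dnajc10 at -0.10, and Sdf2 was equal on all arrays. Of the 22 genes, 2 were below 0 and 4 exactly equal.

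Among 15 protein disulfide isomerases and oxidases the median was 0.18, with 10 above 0, 6 of 15 higher by 1.2-fold, and 2 of 15 lower by it, a share near that of all genes. This median was 0.06 when dim genes were kept. Pdia5, another isomerase, was at 0.62 and passed 1.5-fold; P4hb, the founding isomerase, and Pdia6, named for their relation to Pdia4, were at 0.56 and 0.35.

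Other parts of the pathway were less shifted. Stress sensors and their transcription factors (16 genes) had a median of 0.02, with Atf6b, the paralogue of ATF6, the only gene past 1.5-fold, at 0.60. By 1.2-fold 2 of the 16 were higher and 3 lower, with Wfs1, named as the lowest, at -0.49. Named for their roles with their values known, Atf6 itself was at 0.27, the PERK gene Eif2ak3 at 0.19 and Ddit3, which encodes CHOP, at -0.02, while Atf4 was at -0.30. The 19 genes of reticulum-associated degradation, the system of Herpud1, had a median of 0.00; Edem2, which marks glycoproteins for disposal, was at 0.70, and Syvn1, the ligase that Herpud1 serves and named for that, was equal on all arrays. Translocation and N-glycosylation (28 genes) had a median of 0.07 and 9 genes higher by 1.2-fold, including Sec61a1, the pore of the translocon, at 0.62. Transport to the Golgi (25 genes) had a median of 0.08, with the coat GTPase Sar1b at -0.77 and Kdelr2, a receptor that returns escaped luminal chaperones and named for that role, at 0.33. Calcium binding and pump genes (11) had a median of 0.06; Sln, an inhibitor of the calcium pump, was at 0.74 and the calcium-binding Hrc at -0.68.

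Genes downstream of ATF4 and CHOP (17) spread more widely. Their Plin2 median was 0.28, with 9 genes higher by 1.2-fold and 4 by 1.5-fold, led by Asns (asparagine synthetase) at 1.42, Mthfd2 at 0.98 and Ddit4 at 0.70. By 1.2-fold 2 were lower: Vldlr, the VLDL receptor, at -0.78, and Chac1, named to complete the count, at -0.28. On the Plin5 array 5 of these 17 were lower by 1.2-fold, beside 5.71% of all genes, and 0 higher, beside 1.52%. These were Ddit4 (-0.80), Asns (-0.78), the cystine transporter gene Slc7a11 (-0.69), Trib3 (-0.38) and Mthfd2 (-0.30). The first 3 passed 1.5-fold, beside 1.42% of all genes lower by that much. Slc7a11, Trib3 and Mthfd2 are named to complete the count. Slc7a11 stood at 5.43 on that array, close to the dim limit of 5.34, and Trib3 at 5.97. The 10 reticulum genes stayed within 0.11 of the empty vector there.

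The lists of chaperones of other compartments had medians below 0 on the Plin2 array. Of 24 cytosolic heat shock genes, 15 were below 0 and 5 above (median -0.16), with the J-domain proteins Dnaja4 at -0.95 and Dnajb1 at 0.72. The others above 0, named to complete the count, were Hsp90aa1 (0.46), Dnaja1 (0.32), Hspa8 (0.14) and Hsp90ab1 (0.10). Of 12 mitochondrial chaperones and proteases, 9 were below 0 and 1 above (median -0.22), with the protease subunit Clpx at -0.63. On the Plin5 array the cytosolic list had a median of 0.00 and the mitochondrial list 0.10, with 9 of 12 above 0. The other pathway lists had Plin5 medians from -0.06 to 0.00. Beside the ATF4 and CHOP genes above, the pathway genes past 1.2-fold on the Plin5 array were few: Atf6b (-0.29), Cnpy3 (-0.32), Rcn3 (-0.27) and Sln (-0.82) were lower and Cdnf (0.30) higher.

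**Figure D4:**
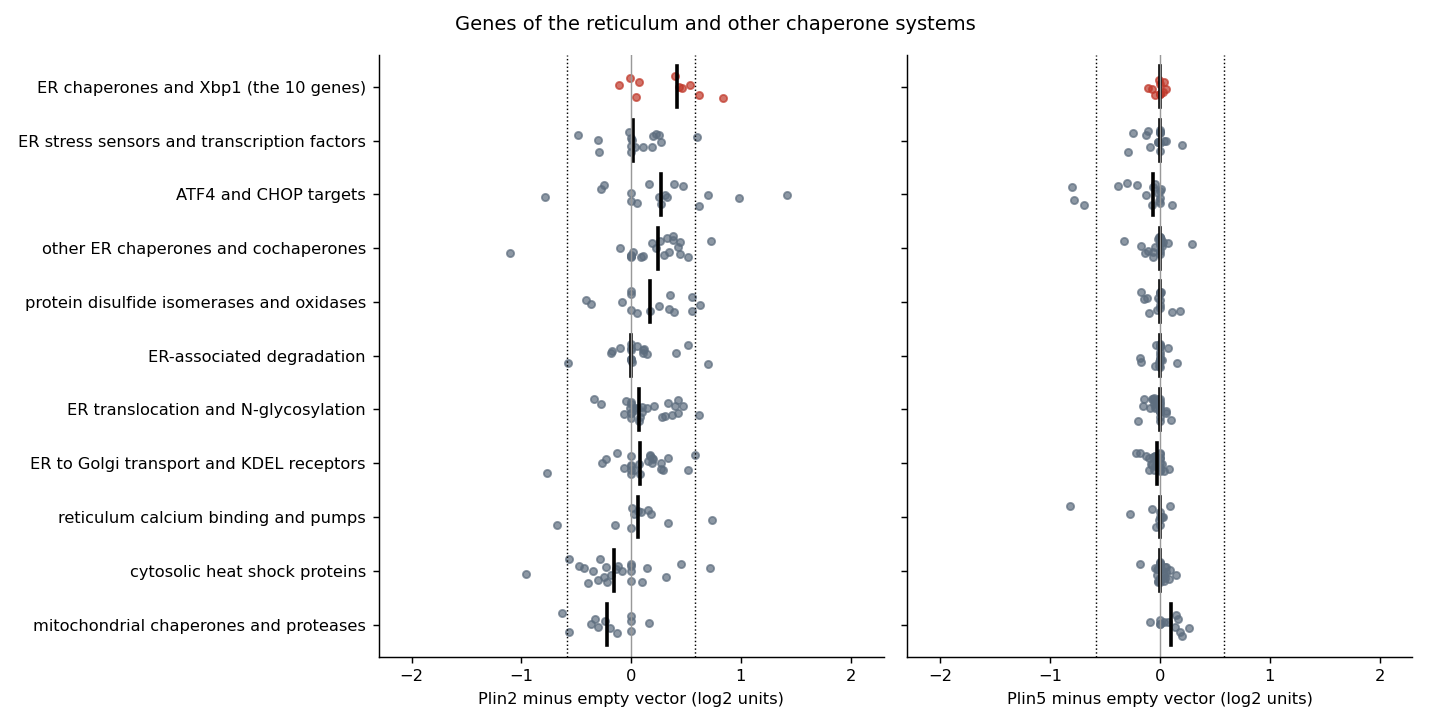
Differences from the empty vector in log2 units on the Plin2 array (left) and the Plin5 array (right), 1 point per gene past the dim filter, for the 10 genes (red) and 10 lists of related genes (grey); black bars are list medians and dotted lines mark 1.5-fold. On the left the 10 genes have a median of 0.42, and the cytosolic and mitochondrial lists have medians below 0. The genes and lists were chosen with earlier results of these data known, so a comparison of their medians is not a test.

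Cell type markers differed on the Plin2 array as well. The tissue was muscle by its markers: the 19 measured fibre genes had mean levels of 13.35, 13.01 and 13.40 on the empty vector, Plin2 and Plin5 arrays, from Acta1, skeletal actin, at 14.04, 14.02 and 14.04 to the slow myosin Myh7 at 11.17, 9.42 and 11.60. All 19 were below 0 on the Plin2 array, with a median of -0.25 (-0.05 after the loess correction). The fast oxidative myosin Myh2 was at -0.98. The 19 macrophage markers all stood higher by 1.2-fold there and 17 by 1.5-fold, with mean levels of 9.73, 10.85 and 9.31; the lipid receptor Trem2 differed by 1.96 and Gpnmb by 1.44. Markers of T and NK cells (14 genes, mean levels 7.97, 9.14 and 7.97) were all higher by 1.2-fold, led by the granzymes Gzmb (2.14) and Gzma (2.07). Markers of regenerating muscle (12 genes, mean levels 9.69, 10.46 and 9.29) were all above 0, led by the fusion factor Mymk (1.41) and Chrna1 (1.12).

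Cells that secrete heavily are known to carry much of the folding machinery, so their markers are given too. Of the 15 fixed B and plasma cell markers 8 were compared, with mean levels of 6.55, 6.86 and 6.34; Jchain, the joining chain of antibodies, stood at 7.62, 8.12 and 5.76, and Sdc1, which fibres and other cells also express, was at 1.17 on the Plin2 array. Ms4a1 and Tnfrsf17 were below the dim limit, and Fkbp11 and Derl3 of this list are also in the pathway lists above. Fibroblast markers (14 genes) had a median of 0.18 and mean levels of 10.14, 10.47 and 10.05, led by Cthrc1 (1.06) and Fbln1 (0.88). Endothelial markers (median 0.00; Flt1 at -0.36 and Tek at 0.23), tendon markers (-0.32) and adipocyte markers (0.00; Cfd at 0.47 and Lpl at -0.20) were not higher as lists, and the 4 compared mast cell and neutrophil markers went both ways (Csf3r at 1.66, Cpa3 at -1.20). In pooled muscle, more cells of a type and more RNA per cell cannot be told apart, and the part of these markers in the differences of the reticulum genes was not tested.

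On the Plin5 array macrophage markers (median -0.47; Trem2 at -1.33), regeneration markers (-0.35; Mymk at -1.24) and tendon markers (-1.10; Chad at -1.94 and Tnmd at -1.39) were lower than on the empty vector array as lists. T and NK cell markers had a Plin5 median of -0.15, with 6 of 14 lower by 1.2-fold and 2 higher, the granzymes Gzma (1.25) and Gzmb (0.79). Fibroblast markers had a Plin5 median of -0.08, with 11 of 14 below 0, and none of the 14 differed by 1.2-fold. The B and plasma cell list had a Plin5 median of 0.00, with 6 of 8 genes exactly equal, Sdc1 at 0.13 and Jchain at -1.85. On that array the reticulum genes differed by at most 0.11 in either direction.

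**Figure D5:**
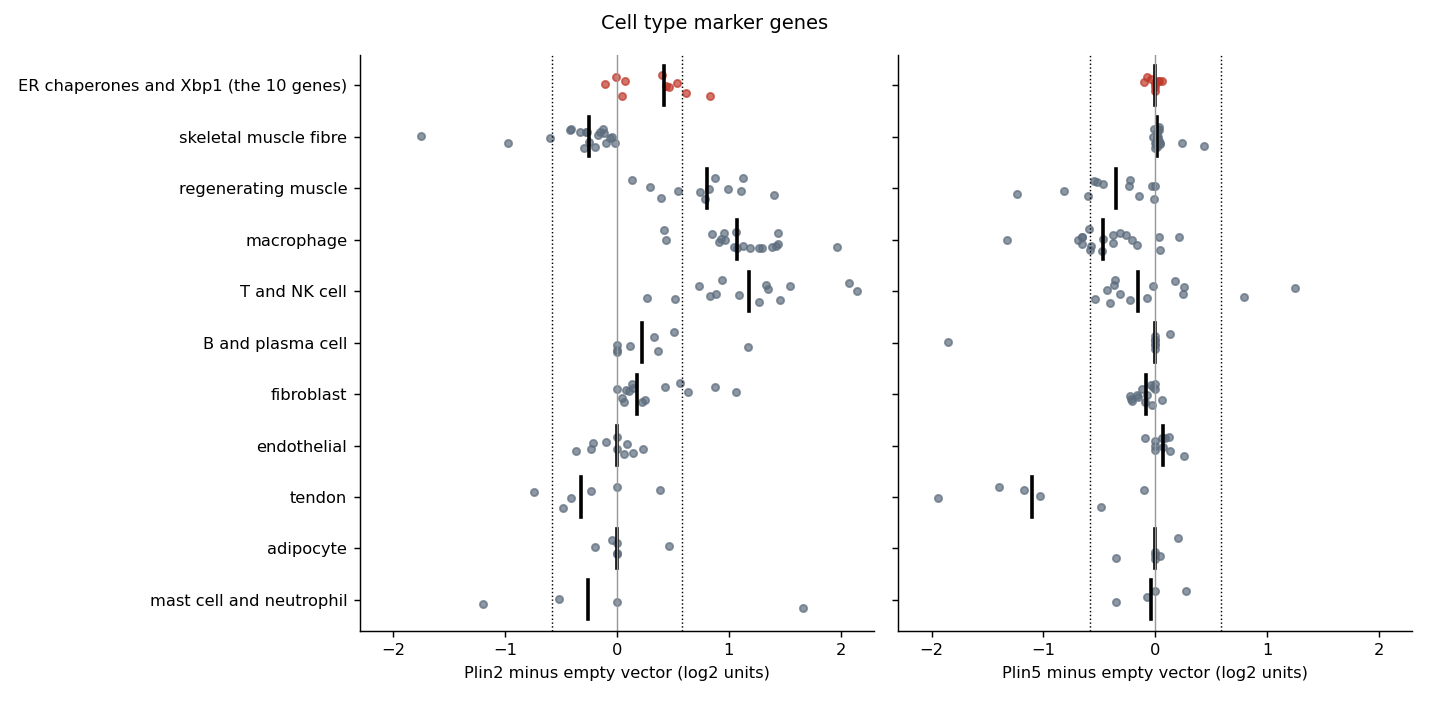
Differences from the empty vector in log2 units on the Plin2 array (left) and the Plin5 array (right), 1 point per gene past the dim filter, for the 10 reticulum genes (red) and 10 lists of cell type markers (grey); black bars are medians and dotted lines mark 1.5-fold. Macrophage, T and NK cell and regeneration markers lie to the right on the Plin2 array, and macrophage, regeneration and tendon medians lie to the left on the Plin5 array, where the 10 genes stay near 0.

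The introduced genes were highest on their own arrays. Plin2 stood at 9.99, 10.70 and 10.08 on the empty vector, Plin2 and Plin5 arrays, and Plin5 at 7.52, 6.79 and 8.30. Plin2 was thus 0.71 higher on its own array and 0.09 higher on the Plin5 array, where no reticulum gene differed from the empty vector by 1.2-fold.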

How the data were processed

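RNA pooled from 6 rats per group was hybridised to 1 whole-transcript array per group (3 arrays). The deposited values are log2 expression levels made by the authors with RMA (background correction, quantile normalization, median polish), named without a version in the submitters' processing notes. The log base is inferred from the range of the values; the genome build is not given in the sources used here.

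The platform's probe-gene table assigned 1 symbol to 15310 of the 29214 probe sets and several to 323, and did not list 13581. Where a symbol had more than 1 probe set the brightest on average was used, which gave 14506 genes, and genes with a mean under the 25th percentile (5.34) were left out, leaving 10879. A difference is one array's log2 value minus another's. With 1 array per group there is no test and no error; the number of arrays limits the precision. Genes were counted past 1.5-fold. RMA gave 38.7% of probe sets exactly equal values on all 3 arrays, which pulls list medians towards 0.00, and quantile normalization hides changes of total RNA.

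The 10 genes, the gene lists and the limits were chosen with earlier results of these data known. Named in the text are the members, the introduced genes, up to 3 genes each way of each pathway list past 1.5-fold on the Plin2 array, up to 2 each way past 1.2-fold on the Plin5 array, up to 2 genes of each marker list, and the 5 genes nearest to Hspa5 and to the median member; other names were chosen after their values were seen, and are said to be so or are named for a known role. Of 349 list symbols, 39 were not measured by a probe set of a single gene and 13 were dim. Motifs were searched on both strands of the RefSeq windows (GRCr8); protein sequences were not used here. Count and median steps were tested on simulated data. As alternatives, probe sets were averaged, arrays were centred, quantile-normalized again or corrected for level by loess, and the limits for fold and dim genes were varied. Calculations used pandas 2.3.3, numpy 2.4.6 and statsmodels 0.14.6 under Python 3.11.15; plots were drawn with matplotlib 3.10.9.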

Additional observations from a re-analysis of the deposited data

How the results depend on the processing

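The count of members higher on Plin2 than on the empty vector (2 at 1.5-fold) was 6 at 1.2-fold, 0 at 2-fold, 3 after the loess correction for level, with Hsp90b1 added, and 1, Sdf2l1, after median-centring. The count lower on Plin5 than on Plin2 (2) was 6 at 1.2-fold, 0 at 2-fold, and 1 after median-centring and after quantile normalization, which also moved the median of the 10 genes from -0.42 to -0.30. The median against the empty vector stayed between 0.36 and 0.42 for Plin2 and between 0.00 and 0.04 for Plin5. The counts for Plin5 against the empty vector were 0 in each direction in all 8 alternatives. Of 180 single differences of members recomputed, 175 moved by at most 0.1 log2 units. The other 5 moved under the loess correction (3) and quantile normalization (2). Median-centring shifted each comparison by less than 0.1 log2 units, so it could not move a member by more. Each member had 1 probe set and passed every dim filter, so averaging probe sets and the filters could not change its values. No array could be left out, and no paired analysis was possible because each group had 1 array. Without replicates, no member difference, from the 0.40 of Manf to the 0.83 of Sdf2l1, can be set against the variation between rats or arrays.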

Other observations

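The genes whose levels over the 3 arrays were most like those of Hspa5, by the Euclidean distance of their pair of differences from the empty vector, were Ldb2, Kif15, Sec61b, Tapbpl and Kif22, all within 0.01 log2 units. Nearest to the median member were Ephb2, Kif23, Ifi35, Fam83d and B3gnt2. With 3 arrays such likeness is common: 294 of 10857 other genes lay within 0.1 of Hspa5.

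An exact ERSE was also present in the promoter windows of 10 other genes compared. On the Plin2 array Zfp57 was at 0.63, Birc5 at 0.55, Calr at 0.45, Canx at 0.38, Hnrnpa3 at 0.31, Zfand2a at 0.28, Derl3 at 0.11, Pan2 at 0.01, Ankmy2 at -0.08 and Ppm1l at -0.82, a median of 0.29 beside 0.00 over all genes. By 1.5-fold 1 of the 10 was higher and 1 lower on the Plin2 array, beside 8.84% and 5.8% of all genes. Calr, Canx and Derl3 are also in the pathway lists above. On the Plin5 array the median of the 10 was 0.00. Zfp57 and Derl3 stood close to the dim limit of 5.34 on the empty vector array, at 5.47 and 5.37. The ERSE-II was found in 11 other genes, with a median of 0.09 on the Plin2 array, among them the chaperone Hyou1 (0.44), the J-domain gene Dnajb11 (0.11) and, with the largest difference, the defensin Defb52 (2.85). These were not tested, and Xbp1 and Dnajc3 hold an exact ERSE without a difference of 0.1 from the empty vector in the main calculation.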
